A study of Mus musculus with 12 samples.

Results

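Transcripts of 10 genes for mitochondrial fusion, fission and biogenesis were measured in the interscapular brown adipose tissue (BAT) of WT and Txnip-/- mice. The genes were chosen by symbol from a table of 25124 genes. They were Mfn1, Mfn2 and Opa1 for fusion, Oma1 for the cleavage of Opa1, and Dnm1l, Fis1 and Mff for fission. Tfam, Polg and Nrf1 stood for mitochondrial DNA (mtDNA) and biogenesis. All 10 were found, and all 10 had a mean of at least 1 TPM (a read count scaled for transcript length and library size). RNA-seq libraries came from 12 male mice aged 10 weeks, 3 in each of 4 groups: WT at room temperature (RT, 23 °C), Txnip-/- at RT, WT at thermoneutrality (TN, 30 °C) and Txnip-/- at TN, each after 1 week of acclimation. Txnip encodes thioredoxin-interacting protein. Its deletion was whole-body and on a C57B/6J background, so every cell of BAT and every other organ lacked the gene, and no group carried a transgene or a drug. The series asked what Txnip does in BAT. The comparisons below address whether transcripts for the shape and upkeep of mitochondria differed by genotype at each temperature, and by temperature in each genotype.

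Mitochondria form a network that is joined by fusion and cut by fission. The mitofusins Mfn1 and Mfn2 tether and merge outer membranes, and Opa1 merges inner membranes and shapes cristae until the stress-activated protease Oma1 cleaves it. Dnm1l (Drp1) is the GTPase that constricts mitochondria, Mff recruits it to the outer membrane, and Fis1 is a further outer-membrane protein of the fission machinery. Tfam packages and transcribes mtDNA, Polg is the catalytic subunit of the mtDNA polymerase, and Nrf1 is a transcription factor for nuclear genes of mitochondrial proteins. Brown adipocytes are rich in mitochondria, whose uncoupled respiration makes heat, and their network is known to remodel when thermogenesis is stimulated.

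The promoters of Opa1, Mfn1, Tfam and Polg are shown because each holds letters of a motif of a factor known for nuclear genes of mitochondria. Sequences are from RefSeq on GRCm38.p6, the build of the mm10 files, and cover the 250 bases before the start of the transcript used for TPM. Capitals mark the motif on either strand, and letters were searched in windows from 250 bases before to 50 bases after the start.

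Opa1, chr16:29579084-29579333, plus strand: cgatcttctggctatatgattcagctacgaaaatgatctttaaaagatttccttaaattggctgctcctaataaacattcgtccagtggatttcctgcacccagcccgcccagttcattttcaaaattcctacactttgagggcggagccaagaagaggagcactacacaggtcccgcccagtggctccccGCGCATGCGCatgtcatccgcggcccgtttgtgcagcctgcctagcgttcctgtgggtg

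Mfn1, chr3:32529232-32529481, plus strand: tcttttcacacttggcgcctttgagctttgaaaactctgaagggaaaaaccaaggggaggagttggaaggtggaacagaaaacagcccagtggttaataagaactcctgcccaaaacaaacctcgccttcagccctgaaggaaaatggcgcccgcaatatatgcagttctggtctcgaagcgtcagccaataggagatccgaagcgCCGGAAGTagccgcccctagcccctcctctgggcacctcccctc

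Tfam, chr10:71238045-71238294, minus strand: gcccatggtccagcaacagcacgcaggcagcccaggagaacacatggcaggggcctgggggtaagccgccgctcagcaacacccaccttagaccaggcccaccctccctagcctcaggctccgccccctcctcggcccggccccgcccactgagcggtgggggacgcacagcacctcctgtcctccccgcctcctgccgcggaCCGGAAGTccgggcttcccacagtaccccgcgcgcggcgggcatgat

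Polg, chr7:79466274-79466523, minus strand: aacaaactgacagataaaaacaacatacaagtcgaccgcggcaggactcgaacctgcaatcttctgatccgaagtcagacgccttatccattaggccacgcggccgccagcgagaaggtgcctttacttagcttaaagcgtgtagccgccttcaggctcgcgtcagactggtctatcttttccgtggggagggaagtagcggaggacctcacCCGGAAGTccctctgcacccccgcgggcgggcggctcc

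The Opa1 window held GCGCATGC, the core bound by the Nrf1 protein, as 2 matches that overlap each other, from positions −59 and −57 relative to the start. Of 32851 promoter windows of this length, 2.71% held it, and no other of the 10 genes did. The ETS motif CCGGAAGT, of the family that includes the GABP factor, lay in the windows of Mfn1 from position −44, Tfam from −47 and Polg from −38, and in that of Fis1 from 20 bases after the start. It was in 4 of the 10 windows and in 3.89% of all windows. The ERR-type motif AAGGTCA, found in 4.72% of all windows, and the CRE motif TGACGTCA, found in 1.79%, were in none of the 10. A match describes these letters and says nothing of binding.

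The libraries held between 29.9 and 47.4 reads in units of 1e6, and libraries of a group correlated with an r of at least 0.985 across genes. Txnip followed the labels. It lay between 564 and 694 TPM in RT WT, 24.8 and 35.4 in RT Txnip-/-, 1072 and 1238 in TN WT, and 10.5 and 14.4 in TN Txnip-/-. All 7 brown adipocyte markers (Ucp1, Cidea and others) were detected in every group, and their summed level lay between 11333 and 11953 TPM in RT WT, 8527 and 10748 in RT Txnip-/-, 6683 and 7578 in TN WT, and 3684 and 4299 in TN Txnip-/-. The 7 macrophage markers summed to between 51.1 and 56.2 TPM, 88.2 and 156, 117 and 214, and 351 and 479 in the same order of groups, and the 6 fibroblast markers to between 203 and 258, 253 and 308, 345 and 470, and 825 and 833. The 8 skeletal muscle markers summed to between 20.3 and 50.2 TPM in RT Txnip-/-, against between 2.44 and 16.4 in the other groups. None of the markers in these lists was at 0 throughout a group. The part of these shifts in the results below was not tested, and in whole tissue fewer cells of a type and less RNA per cell cannot be told apart.

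Mfn2 was the most abundant of the 10 transcripts in every group, with a mean of 139 ± 2.21 TPM (SD, n = 3) in RT WT, and Nrf1 the least, with 4.66 ± 0.93 TPM. Among genes at a mean of at least 1 TPM, Mfn2 stood at percentile 95.1 and Nrf1 at percentile 29.8. In RT WT the order by TPM was Mfn2, Fis1, Opa1, Mff, Dnm1l, Mfn1, Tfam, Polg, Oma1 and Nrf1. Neighbours in that order did not overlap between libraries, except Fis1 with Opa1 and Dnm1l with Mfn1. The order from Tfam down was the same in all 4 groups with no overlap between neighbours. The places of Fis1, Opa1 and Mff were not the same in all groups. In TN Txnip-/- libraries Fis1 was at 88.5 ± 8.27 TPM above Mff at 67.2 ± 3.02, which overlapped Opa1 at 59.1 ± 6.02.

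**Figure D1:**
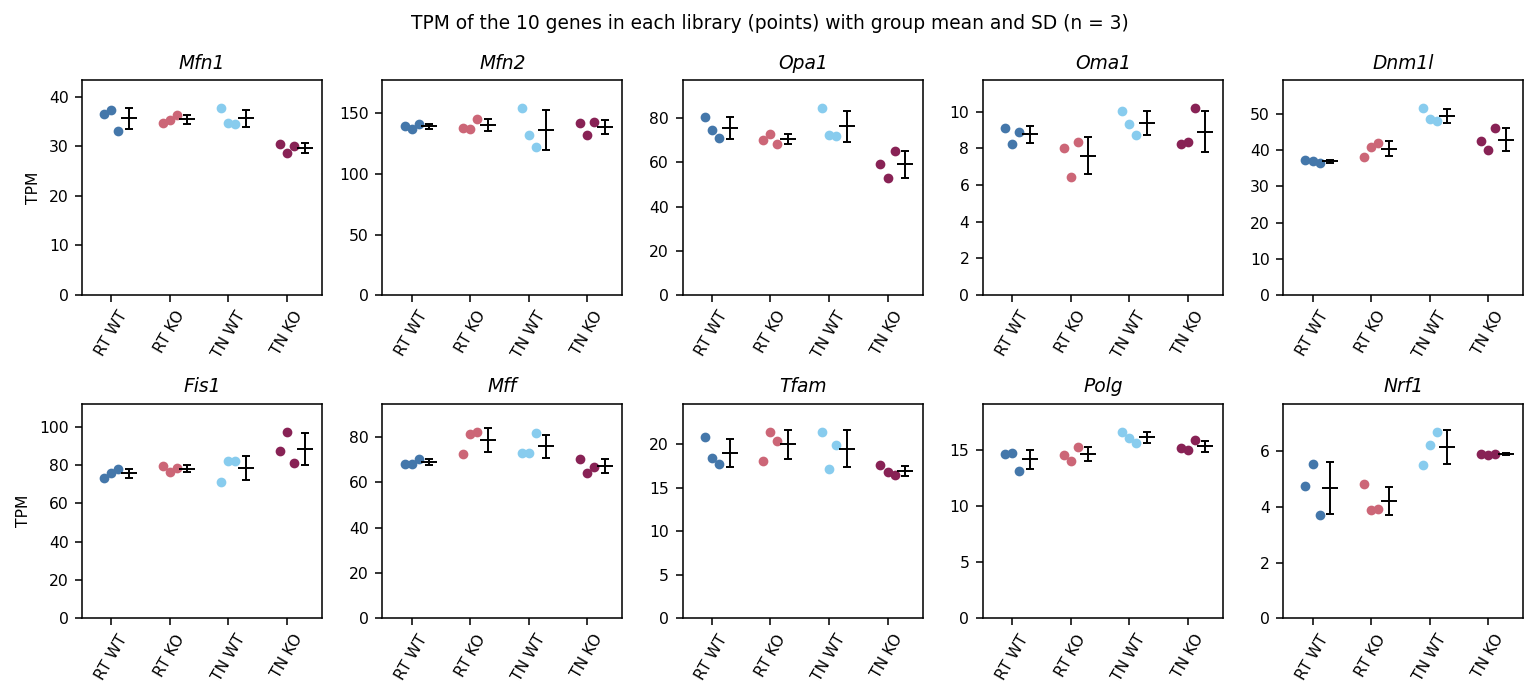
TPM (vertical axis, from 0) of each of the 10 genes in the 12 libraries, with points for libraries and bars for the group mean and SD (n = 3); KO stands for Txnip-/-. Mfn1 and Opa1 are lowest in the 3 TN Txnip-/- libraries, while Dnm1l is highest in the 3 TN WT libraries.

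At RT the 10 genes differed little between genotypes. With limma on log2(TPM + 1), a gene was called at a log2 difference above 0.32 or below −0.32 (a fall to 0.8 times) and an adjusted p under 0.05 over all tested genes. None of the 10 was called, against 1.49% of 11980 genes, and 1 had an unadjusted p under 0.05, against 16.0% of all genes. The share of all genes called rested on single libraries: it was 0.0167% without RT WT replicate 2, 0.259% without RT WT replicate 1, and 0.276%, 0.724% and 0.209% without RT Txnip-/- replicates 1, 2 and 3, with none of the 10 genes called in any of these. On the authors' log-scale values none was called either. The differences of Txnip-/- from WT ran from −0.19 for Oma1 to 0.19 for Mff on the log2 scale, with a median of 0.026 beside 0.033 for all genes. Every 95% interval lay between −0.44 and 0.34.

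Mff, the receptor for Drp1, was at 68.2, 68.0 and 70.5 TPM in RT WT and at 72.8, 81.4 and 82.4 in RT Txnip-/-. All 3 Txnip-/- libraries lay above all 3 WT libraries. The difference was 0.19 on the log2 scale (SE 0.064), with a limma adjusted p of 0.209. Dnm1l, its partner GTPase, was at 37.3, 37.0 and 36.5 TPM in RT WT and at 38.1, 40.9 and 42.1 in RT Txnip-/-, again without overlap. Its difference was 0.13 (SE 0.060), with a limma adjusted p of 0.367. These were 2 of the 10 genes whose groups did not overlap, against 22.6% of all genes. The fusion genes Mfn1, Mfn2 and Opa1 overlapped between genotypes at RT.

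At TN the fusion genes Opa1 and Mfn1 were lower in Txnip-/- BAT, and neither passed the threshold. None of the 10 genes was called, against 8.66% of 12891 genes, and 4 had an unadjusted p under 0.05, against 25.6% of all. The share of all genes called was 3.55% and 3.6% without TN Txnip-/- replicates 1 and 2, and 5.43% and 5.31% without TN WT replicates 1 and 3, again with none of the 10 called. Groups did not overlap for 4 of the 10 genes (Mfn1, Opa1, Dnm1l and Mff, all lower in Txnip-/-), against 31.1% of all genes. In the same comparison 5 of 7 brown adipocyte markers were called lower, and 7 of 7 macrophage and 6 of 6 fibroblast markers higher; their part in the values below was not tested. The median difference of the 10 genes was −0.12 on the log2 scale, beside 0.0078 for all genes. On the authors' log-scale values none was called.

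Opa1 (chr16:29579334-29654602, plus strand, mm10) was at 84.5, 72.6 and 72.1 TPM in TN WT and at 59.1, 53.0 and 65.1 in TN Txnip-/-. No Txnip-/- library reached the lowest WT library, and the Txnip-/- mean was 77.4% of the WT mean. The difference was −0.37 on the log2 scale (SE 0.097, 95% interval −0.59 to −0.14), with a limma adjusted p of 0.0540. The call turned on the settings: Opa1 passed in a fit of all 12 libraries with an adjusted p of 0.0173, with median centring of each library at 0.0446, and with only genes at 1 TPM or more in every library at 0.0492. It also passed without TN Txnip-/- replicate 3, at −0.44 and an adjusted p of 0.0435, and over all its alternatives the adjusted p ran from 0.0173 to 0.152. Centred on mitochondrial content genes, a list described below, the difference of Opa1 was −0.18 (adjusted p 0.142). This scaling moved all genes alike, and their median rose from 0.0078 to 0.19, so distances from that median stayed as they were. Averaged over RT and TN, Opa1 was lower by −0.23 (SE 0.060), with an adjusted p of 0.0234 and a fold that did not reach 0.8.

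Mfn1 (chr3:32529482-32579225, plus strand) was at 37.6, 34.7 and 34.5 TPM in TN WT and at 30.4, 28.5 and 30.1 in TN Txnip-/-. The groups did not overlap, and the Txnip-/- mean was 83.4% of the WT mean. The difference was −0.25 (SE 0.066, 95% interval −0.41 to −0.10), with a limma adjusted p of 0.0521, which ran from 0.0201 to 0.431 over its alternatives. With content centring the difference of Mfn1 was −0.068. Its paralog Mfn2 (chr4:147873586-147904698, minus strand) was at 154, 132 and 122 TPM in TN WT and at 142, 132 and 143 in TN Txnip-/-. These groups overlapped, and the difference of 0.038 had a 95% interval from −0.18 to 0.25. Oma1, the protease that cleaves Opa1 (chr4:103313846-103366428, plus strand), was between 8.71 and 10.0 TPM in TN WT and between 8.21 and 10.2 in TN Txnip-/-.

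Of the fission genes, Dnm1l (chr16:16312228-16358575, minus strand) was at 51.6, 48.6 and 48.2 TPM in TN WT and at 42.5, 40.0 and 46.2 in TN Txnip-/-. All Txnip-/- libraries were lower, by −0.20 on the log2 scale (SE 0.073), with a limma adjusted p of 0.126, and with content centring by −0.017. Mff (chr1:82724890-82752389, plus strand) was at 72.9, 73.2 and 81.8 TPM in TN WT and at 70.4, 64.4 and 66.8 in TN Txnip-/-. It too did not overlap, with a difference of −0.17 (SE 0.072) and a limma adjusted p of 0.177, but after centring on mitochondrial content genes its difference was 0.012. Fis1 (chr5:136962077-136966234, plus strand) was at 71.1, 82.0 and 81.9 TPM in TN WT and at 87.1, 97.4 and 81.0 in TN Txnip-/-. Its groups overlapped, and its difference was 0.17 (SE 0.091, adjusted p 0.284 in limma), and with content centring it was called, at 0.36 with an adjusted p of 0.0399. Under that scaling 20.8% of all genes were called higher, and the median of all genes was 0.19.

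Tfam, the mtDNA packaging factor (chr10:71225477-71238044, minus strand), was at 21.4, 17.1 and 19.9 TPM in TN WT and at 17.6, 16.8 and 16.4 in TN Txnip-/-. The groups overlapped by 1 WT library, and the difference of −0.19 (SE 0.088) had a limma adjusted p of 0.236 and was −0.00037 with content centring. Polg (chr7:79446231-79466273, minus strand) lay between 15.7 and 16.7 TPM in TN WT and between 15.0 and 15.9 in TN Txnip-/-. Nrf1 (chr6:30047988-30153458, plus strand) lay between 5.48 and 6.69 TPM and between 5.86 and 5.90. Their differences were −0.067 and −0.046 on the log2 scale, with overlapping groups.

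**Figure D2:**
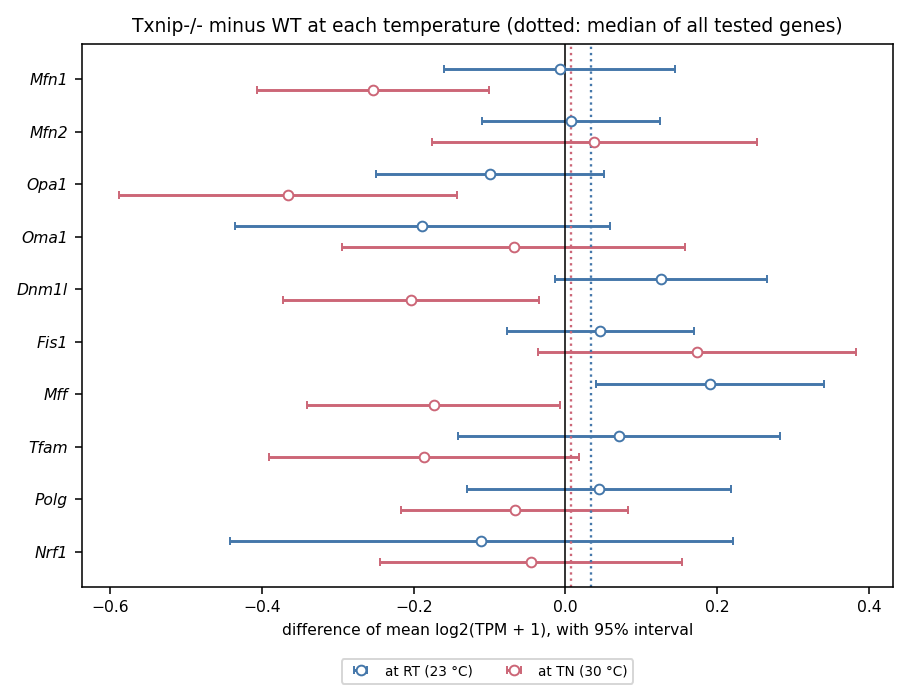
Difference of mean log2(TPM + 1) between Txnip-/- and WT (horizontal axis) for each gene at RT and at TN, with 95% intervals from limma; open circles did not pass the call, and dotted lines mark the median of all tested genes. At TN the intervals of Mfn1, Opa1, Dnm1l and Mff lie below 0, and at RT that of Mff lies above 0.

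Dnm1l and Mff, which act together in fission, were above WT at RT and below WT at TN without overlap at either temperature. This order was seen for 2 of the 10 genes and for 0.765% of 11893 genes tested at both temperatures. It was picked with the values of these genes in view, so these shares are descriptions and not a test. The genotype effect at TN minus that at RT was −0.36 for Mff (SE 0.094, unadjusted p 0.00229, adjusted p 0.184 in limma) and −0.33 for Dnm1l (SE 0.090, unadjusted p 0.00340, adjusted p 0.196). With content centring, which moved the median interaction of all genes from −0.021 to 0.10, these were −0.24 and −0.20. No interaction of genotype and temperature was called for the 10 genes, against 0.00801% of 12486 genes, a share that is Txnip alone. At an unadjusted p under 0.05 there were 4 of 10 (Mff, Dnm1l, Mfn1 and Opa1), against 12.6% of all genes. Averaged over both temperatures, none of the 10 was called, against 7.84%, and 2 had an unadjusted p under 0.05, against 26.8%.

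Much of the transcriptome differed between temperatures, and 37.8% of 12486 genes were called between TN and RT in WT. No label says whether libraries of both temperatures were prepared together, so a difference of preparation cannot be told apart from one of temperature. The median of all genes was 0.18 higher at TN in WT and 0.15 higher in Txnip-/- on the log2 scale, so a difference of the 10 genes has to be read against that shift. With TPM as deposited, 83.1% of called genes in WT were higher at TN, and after median centring 51.1%. In Txnip-/- the shares were 78.9% and 48.5%.

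In WT, Dnm1l and Nrf1 were called higher at TN, 2 of the 10 genes, against 37.8% of all genes called and 31.4% called higher. Dnm1l was between 36.5 and 37.3 TPM at RT and between 48.2 and 51.6 at TN, with no overlap. The difference was 0.41 (SE 0.063, adjusted p 0.000487 in limma), and with median centring it was 0.23 (adjusted p 0.0193), under the fold needed for a call. Nrf1 was at 4.74, 5.54 and 3.69 TPM at RT and at 5.48, 6.21 and 6.69 at TN. Its groups overlapped by 1 library, and its difference of 0.34 (SE 0.12, adjusted p 0.0320 in limma) was 0.16 with median centring (adjusted p 0.253). The call of Nrf1 was lost without RT WT replicate 1 or 3 or TN WT replicate 2 or 3, where adjusted p ran from 0.0523 to 0.129. The difference was 0.36 and 0.21 without RT WT replicates 1 and 3, and 0.33 and 0.29 without TN WT replicates 2 and 3. Groups did not overlap for 3 of the 10 genes (Dnm1l, Mff and Polg), against 57.5% of all genes.

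Opa1 and Mfn1 were not called between temperatures in WT. Their differences of 0.014 and 0.00062 were −0.17 and −0.18 with median centring (adjusted p 0.138 and 0.0319 in limma). With each library's trend on transcript length removed both were −0.21 (adjusted p 0.0382 and 0.00907), and neither setting reached the −0.32 needed for a call. Mfn2 was between 137 and 141 TPM at RT and between 122 and 154 at TN, a difference of −0.042 that was −0.23 with median centring (adjusted p 0.0412), short of the −0.32 needed for a call. Polg was between 13.2 and 14.7 TPM at RT and between 15.7 and 16.7 at TN. It had an adjusted p of 0.0361 in limma at a difference under 0.32, and its difference of 0.18 was −0.0060 with median centring.

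In Txnip-/-, Nrf1 was called higher at TN, 1 of the 10 genes, against 39.2% of 12486 genes. It was at 4.80, 3.90 and 3.92 TPM at RT and at 5.90, 5.86 and 5.90 at TN, without overlap. The difference of 0.41 (SE 0.12, adjusted p 0.0137 in limma) was 0.22 with median centring (adjusted p 0.112), and the call was lost without RT Txnip-/- replicate 2, at 0.37 (adjusted p 0.0516). Groups did not overlap for 6 of the 10 genes, against 61.1% of all genes.

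Opa1, Mfn1, Mff and Tfam lay below their RT levels in TN Txnip-/- BAT, without overlap. Opa1 was at 70.2, 72.7 and 68.2 TPM at RT and Mfn1 at 34.6, 35.3 and 36.2, beside the TN values given above. The differences were −0.25 for Opa1, −0.25 for Mfn1, −0.23 for Mff and −0.22 for Tfam, with adjusted p of 0.0265, 0.00579, 0.0136 and 0.0587 in limma and folds that did not reach 0.8. With median centring these 4 of the 10 genes were called lower, against 19.5% of all genes, at −0.44, −0.44, −0.42 and −0.41, with adjusted p of 0.00155, 0.000195, 0.00103 and 0.00481. Centring on the mitochondrial content genes, of which 14 of 16 lay below 0 at TN, instead left none of these 4 called, with differences between −0.051 and −0.022, and called Oma1, Nrf1 and Fis1 higher, against 51.3% of all genes, with the median of all genes at 0.35. Tfam was at 18.1, 21.4 and 20.4 TPM at RT.

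**Figure D3:**
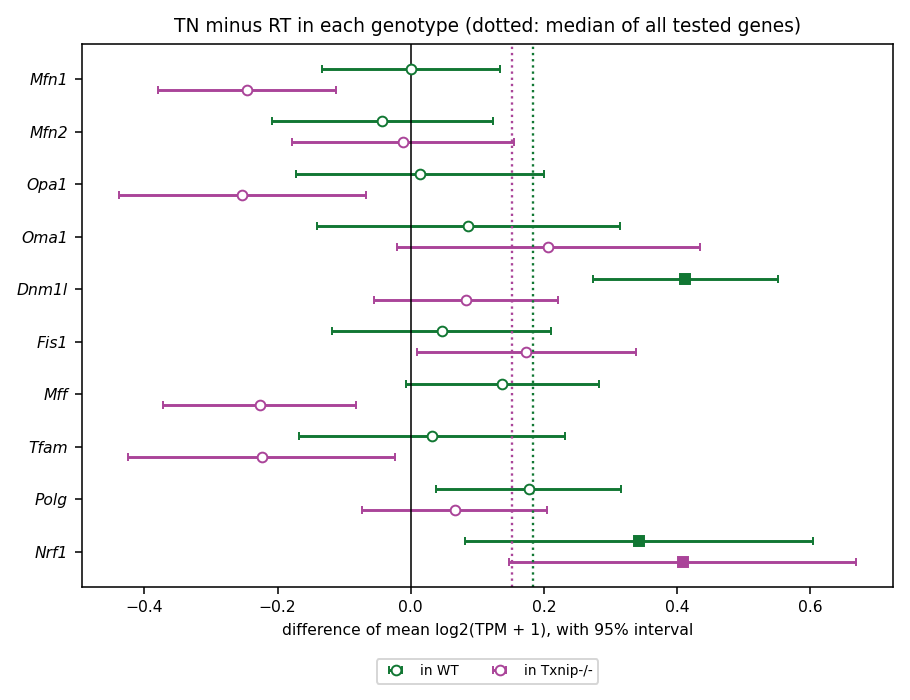
Difference of mean log2(TPM + 1) between TN and RT (horizontal axis) for each gene in WT and in Txnip-/-, with 95% intervals from limma; filled squares passed the call, and dotted lines mark the median of all tested genes. The filled squares are Dnm1l and Nrf1 in WT and Nrf1 in Txnip-/-, and Mfn1, Opa1, Mff and Tfam lie below 0 in Txnip-/-.

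Other genes of the same processes were taken from lists that leave out the 10 genes. At RT, 1 gene of the lists was called in Txnip-/- against WT, of 102 tested (0.98%, beside 1.49% of all genes). Spire1, an actin nucleator with a mitochondrial isoform, rose from 14.7 ± 1.35 to 22.8 ± 0.73 TPM (SD, n = 3), by 0.60 on the log2 scale (adjusted p 0.0238 in limma). The other 15 tested fission regulators, and all tested genes of the other lists, were not called at RT.

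At TN, 6 of 103 tested list genes were called in Txnip-/- against WT, all lower. That is 5.83%, beside 8.66% of all genes called and 2.17% called lower. Of 19 genes of fusion and inner membrane shape 18 lay below 0 and 1 was called, and the median was −0.15. The called gene was Letm1, an inner-membrane cation exchanger, which fell from 56.1 ± 2.12 to 37.4 ± 2.18 TPM (difference −0.57, adjusted p 0.00542 in limma). Of 16 tested fission regulators 10 lay below 0, and March5, a ubiquitin ligase of the outer membrane, fell from 138 ± 12.8 to 106 ± 4.27 TPM (adjusted p 0.0328 in limma). Of 24 genes of mtDNA replication, nucleoid and transcription 19 lay below 0, and Mterf2, a factor of mitochondrial transcription, was called (9.73 ± 0.69 to 6.78 ± 0.33 TPM, adjusted p 0.0133 in limma).

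Among 15 tested biogenesis regulators 11 lay below 0, with a median of −0.15, and 2 were called. Perm1, a muscle and fat regulator of oxidative genes, fell from 28.0 ± 5.50 to 10.2 ± 3.35 TPM (difference −1.41, adjusted p 0.0106 in limma). Esrra, the nuclear receptor ERRα, fell from 130 ± 11.9 to 97.7 ± 3.71 TPM (adjusted p 0.0220 in limma). No mitophagy gene of 13 was called. Of 16 mitochondrial content genes, such as those for citrate synthase and subunits of respiratory complexes, 14 lay below 0 with a median of −0.21. Of these, Tomm40, the channel for protein import, was called (82.5 ± 7.08 to 62.4 ± 5.20 TPM, adjusted p 0.0340 in limma). The medians over all tested genes were 0.033 at RT and 0.0078 at TN.

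**Figure D4:**
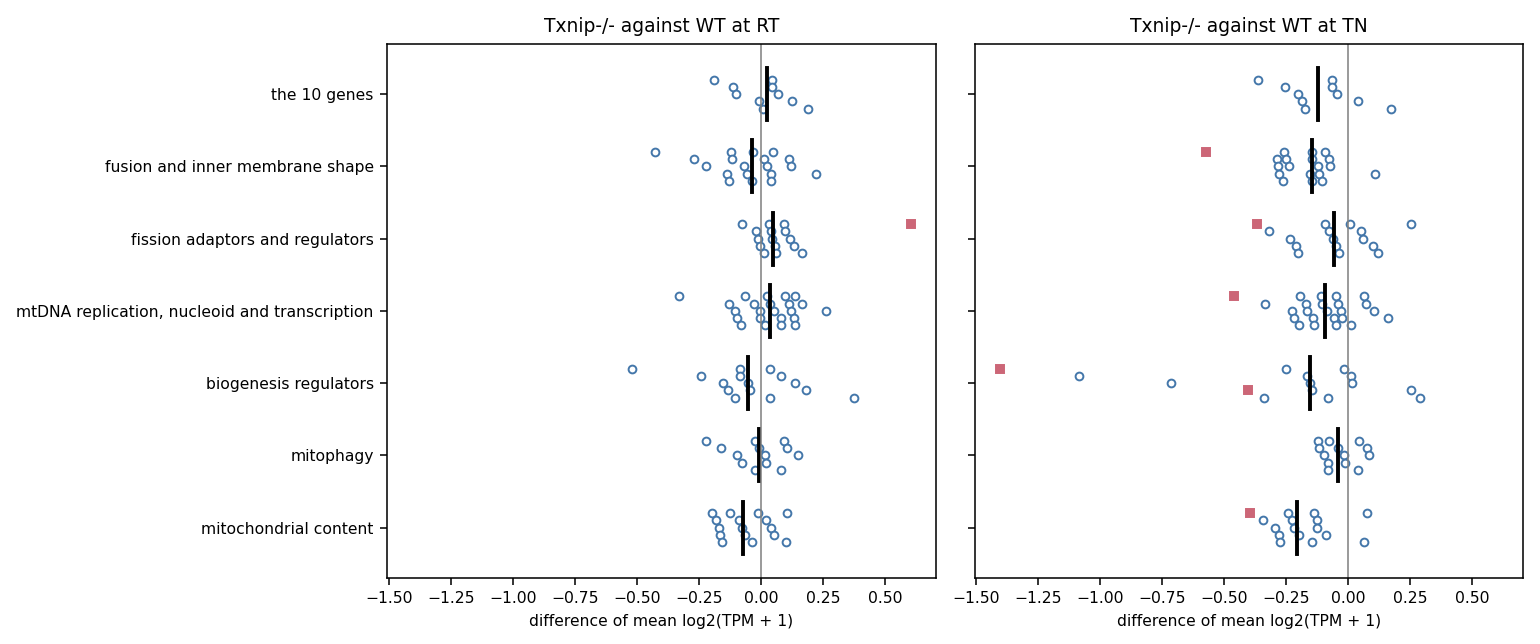
Difference of mean log2(TPM + 1) between Txnip-/- and WT (horizontal axis) at RT and TN for the 10 genes and for the genes of 6 lists; each point is a gene, filled squares passed the call, and black bars are medians. At TN most genes of the fusion and content lists lie below 0, while at RT the medians lie between −0.072 and 0.050.

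Between temperatures the lists are read against a background that was itself shifted. With TPM as deposited, 31.4% of all genes were called higher and 6.39% lower at TN in WT. In WT, the fusion and inner membrane list had a median of −0.11 beside 0.18 for all genes, with 2 genes higher (Pld6 at 0.63, Miga1 at 0.53) and 2 lower (Letm1 at −0.84, Miga2 at −0.51). No fission regulator was called. Of 23 tested mtDNA genes 4 were higher and none lower, led by the primase-polymerase Primpol at 0.64, the ribonucleotide reductase subunit Rrm2b at 0.62 and the polymerase subunit Polg2 at 0.47. Of 15 biogenesis regulators 6 were higher and none lower, led by Perm1 at 1.02, Gabpa at 0.57 and Esrrg at 0.50, and the mitophagy receptor Optn was higher by 0.57. With median centring, 15.4% of all genes were called higher and 14.7% lower. Then 9 of 19 genes of the fusion list, 6 of 16 fission regulators and 6 of 16 content genes were called lower. Of the mtDNA genes 2 were called higher and 3 lower, and of the biogenesis regulators 2 higher and 2 lower. Of 13 mitophagy genes 1 was called higher and 2 lower.

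In Txnip-/-, 30.9% of all genes were called higher and 8.27% lower at TN. Among the lists, 4 of 19 fusion and inner membrane genes were lower at TN (Letm1 at −0.99, Miga2 at −0.70 and the prohibitin Phb2 at −0.38 led) and Miga1 was higher at 0.34. Of 16 fission regulators 5 were lower, led by March5 at −0.68, Mtfp1 at −0.50 and Mtfr1 at −0.36. Among mtDNA genes the mitochondrial RNA polymerase Polrmt at −0.54, its partner Tfb2m at −0.53 and the helicase Twnk at −0.43 were lower, and Primpol at 0.68, Rrm2b at 0.37 and Exog at 0.36 were higher. The coactivator Ppargc1a, also counted among the brown adipocyte markers, was lower by −1.95 and Esrra by −0.35, while Gabpb1 at 0.49 and Esrrg at 0.40 were higher. The mitophagy receptor Optn was higher by 0.46. Of 16 content genes 4 were lower, led by Tomm40 at −0.56, cytochrome c (Cycs) at −0.43 and Tomm22 at −0.36. With median centring, 18.4% of all genes were called higher and 19.5% lower. Then 13 of 19 fusion genes, 12 of 16 fission regulators and 11 of 16 content genes were called lower. So were 6 of 23 mtDNA genes, 3 of 15 biogenesis regulators and 4 of 13 mitophagy genes. Of all the lists only Primpol was called higher.

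Genes with the most similar pattern were ranked by Pearson r of log2(TPM + 1) over the 12 libraries, which share a group structure and a tissue makeup, so the values are descriptions. For Opa1 they were Ppm1a (r = 0.958), Nudt12 (0.958) and Tmem106b (0.950). For Dnm1l they were Abraxas1 (0.965), AA986860 (0.955) and Scfd1 (0.954). For Tfam they were Rhot1 (0.918), which encodes the mitochondrial transport GTPase Miro1, Sos2 (0.886) and Rita1 (0.882). Among Opa1, Dnm1l, Tfam and Mfn2, the only genes ranked so, Mfn2 had the weakest likeness, with 4930402H24Rik (0.789), Ndst1 (0.750) and Heca (0.745).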

How the data were processed

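BAT of 12 mice was profiled by RNA-seq of poly-A RNA. Per the labels and methods, the authors mapped single-end reads with STAR 2.7.5a on mm10, counted exonic reads with HOMER 4.11.1 for 1 transcript of each gene and deposited TPM of all libraries. They also deposited log2-scale values of the 6 libraries of each temperature, with fold changes and p-values that were not used here. The transcript behind these log2-scale values is another one than in the TPM for 5 of the 10 genes (Mfn2, Opa1, Dnm1l, Mff and Nrf1). Strand use in counting is not given in the sources used here, and exons of Dnm1l, Mff and Polg overlap genes on the opposite strand over 4.67%, 2.0% and 8.57% of their exonic bases (GENCODE vM21, GRCm38).

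Read counts were not used here, so TPM were tested as log2(TPM + 1), a scale that understates changes of low genes, with limma 3.58.1 in R 4.3.3 (trended empirical Bayes, Benjamini-Hochberg over all genes with a mean of at least 1 TPM in the fitted libraries). Genotypes were compared on the 6 libraries of each temperature, and temperatures and the interaction on all 12. Calls needed the study's fold limits, a log2 difference above 0.32 or below −0.32, and an adjusted p under 0.05, the interaction an adjusted p under 0.05. Depth was 29.9 to 47.4 in units of 1e6 reads per library. Without read counts, counting error was not modelled apart. Precision came from the spread between the 3 libraries of each group, pooled over the groups of a fit and moderated across genes. Each library was taken as 1 mouse, and no label ties libraries to litters. The p-values set a difference of group means against this moderated spread between libraries.

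The 10 genes and the lists were chosen with earlier results of these data known. Named genes were all 10 members, list genes called between genotypes, the 3 list genes with the largest difference in each direction between temperatures, and the 3 genes most correlated with Mfn2, Opa1, Dnm1l and Tfam. The symbol Marchf5 was matched as March5, and 1 gene that the rule gives is left out of the text. Alternatives were another pseudocount (0.1), other filters and scalings, the authors' log2-scale values, a replicate block, other thresholds and libraries left out; removal of each library's trend on transcript length (loess, span 0.3) was added after the data were seen. The method was tested on simulated data.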

Additional observations from a re-analysis of the deposited data

Results flagged for a closer look

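Dnm1l and Mff stood out because all 3 Txnip-/- libraries were above all 3 WT libraries at RT and below them at TN. The genotype effect at TN minus that at RT was −0.33 on the log2 scale for Dnm1l and −0.36 for Mff. With each library left out in turn it ran from −0.38 to −0.28 and from −0.42 to −0.31, and with centring on mitochondrial content genes, which moves all genes alike, it was −0.20 and −0.24. Its sign with a library left out follows from how these 2 genes were picked. In limma neither difference passed after adjustment over all genes, with adjusted p that ran from 0.141 to 0.400 for Dnm1l and from 0.110 to 0.391 for Mff over the alternatives. Exons of both genes overlap an antisense or processed transcript on the opposite strand, and the part of this in the values was not tested.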

How the results depend on the processing

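The intervals given above rest on the spread within groups, pooled over the groups of a fit and moderated by limma across genes. TPM do not hold the read counts, so counting error was not modelled apart. At RT no alternative called any of the 10 genes. At TN 1 gene was called in Txnip-/- against WT with the filter on every library, with median centring, with all 12 libraries, with an unadjusted p, with the length trend removed (Opa1 in each) and with centring on mitochondrial content genes (Fis1), and between 0 and 1 with a library left out. Of all genes, 8.52%, 8.57%, 9.07%, 14.4%, 8.85% and 21.6% were called under these 6 settings, in that order, so 1 of 10 was near or below the share of all genes. For TN against RT in WT, 2 genes were called. The count was 1 with all genes above 0 or only the 6 WT libraries, 0 with upper-quartile normalization, median centring or the length trend removed, 3 with an adjusted p alone (Dnm1l, Polg and Nrf1), and 1 to 2 with a library left out. The shares of all genes were 23.2%, 35.9%, 32.6%, 30.2%, 30.0% and 50.3% under these 6 settings, in that order. In Txnip-/- it was 3 with upper-quartile normalization or content centring, 4 with median centring, an adjusted p alone or the length trend removed, and 0 to 2 with a library left out. Of all genes, 37.3%, 54.6%, 37.9%, 51.4% and 37.0% were called under these 5 settings, in that order. An unadjusted p gave 4 interactions, against 12.6% of all genes, and an adjusted p alone gave 1 gene (Opa1) for the average over temperatures, against 14.3% of all genes. Content centring gave Mfn1 −0.068, Opa1 −0.18, Dnm1l −0.017 and Tfam −0.00037 in Txnip-/- against WT at TN, with the median of all genes at 0.19 in place of 0.0078. The cause was not tested, beyond the scaling that each alternative applies.

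Values of genes that were not called changed sign as follows (log2 scale). Txnip-/- against WT at RT: Mfn2 was −0.017 with upper-quartile normalization, −0.021 with median centring, −0.027 on the authors' values and −0.034 with the length trend removed. Mfn1 was 0.053 with content centring, Fis1 −0.00073 and Polg −0.00034 on the authors' values, and Polg −0.021 with the length trend removed. At TN, content centring gave Oma1 0.12, Mff 0.012, Polg 0.12 and Nrf1 0.14. For TN against RT in WT, upper-quartile normalization gave Mfn1 −0.10, Opa1 −0.087, Oma1 −0.0059, Fis1 −0.055 and Tfam −0.065. Median centring gave Mfn1 −0.18, Opa1 −0.17, Oma1 −0.10, Fis1 −0.14, Mff −0.046, Tfam −0.15 and Polg −0.0060. Removal of the length trend gave Mfn1 −0.21, Opa1 −0.21, Oma1 −0.076, Fis1 −0.068, Mff −0.021, Tfam −0.17 and Polg −0.063, and content centring gave Mfn2 0.034. In Txnip-/-, Polg was −0.010 with upper-quartile normalization. Median centring gave Dnm1l −0.11, Fis1 −0.015 and Polg −0.12, the length trend removed Dnm1l −0.10 and Polg −0.094, and content centring Mfn2 0.19. For the interaction, content centring gave Polg 0.015. For the average over temperatures, Mff was −0.014, −0.021 and −0.0039 with upper-quartile normalization, median centring and the length trend removed, and Mfn2 was −0.0062 with median centring. Content centring gave Dnm1l 0.084, Tfam 0.065, Polg 0.11 and Nrf1 0.045.

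With a library left out, ranges that crossed 0 were, at RT, Mfn1 −0.057 to 0.026, Mfn2 −0.021 to 0.025, Nrf1 −0.24 to 0.00074 and Polg −0.0046 to 0.073. At TN they were Mfn2 −0.037 to 0.13 and Nrf1 −0.11 to 0.011. For TN against RT in WT they were Mfn1 −0.049 to 0.034, Opa1 −0.060 to 0.062, Tfam −0.035 to 0.12 and Mfn2 −0.14 to 0.032, and in Txnip-/- Mfn2 −0.030 to 0.023. For the interaction they were Nrf1 −0.046 to 0.19 and Mfn2 −0.044 to 0.12, and for the average Polg −0.036 to 0.0029, Mff −0.0084 to 0.036 and Mfn2 −0.015 to 0.069.

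The replicate block left the number of the 10 genes called at 0, 0, 2, 1, 0 and 0 in the 6 comparisons. Deviations of same-numbered WT and Txnip-/- libraries correlated at 0.30, −0.022 and 0.21 at RT and at 0.042, 0.023 and −0.036 at TN. Libraries of unlike number correlated between −0.30 and 0.16 at RT and between −0.083 and 0.070 at TN. The numbers were not taken to pair the samples, as no label says that they do. Over all genes the block called 100 genes at RT, against 178 without it, and 977 at TN, against 1116.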

Other observations

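Mfn2 was between 4.64 and 4.74 times Mfn1 in TPM in the 3 TN Txnip-/- libraries and between 3.54 and 4.26 times in the other 9, without overlap. Mfn2 itself differed by 0.038 between genotypes at TN, and neither gene was called in that comparison. This ratio was picked with its values in view, and it was not tested or compared with other pairs.

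Opa1 and Fis1 ran opposite to each other over the 12 libraries, with a Pearson r of −0.943 (Spearman rho −0.818) and an r of −0.967 for deviations from the group means. Their transcripts are 5917 and 779 bases long. With each library's trend on transcript length removed, r was −0.647. Opa1 and Mfn1 ran together, with an r of 0.896 (rho 0.860), which was 0.940 with the length trend removed. Dnm1l and Polg had an r of 0.860, which was 0.147 with the length trend removed. These are descriptions of 45 gene pairs over libraries that share groups and tissue makeup.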
